A study of Mus musculus with 13 samples.

Results

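Iron handling by the cell was followed through 10 genes in mouse bone marrow after the loss of blood: the transferrin receptors Tfrc and Tfr2, the iron reductase Steap3, the iron transporters Slc11a2 and Slc25a37, the ferritin heavy chain Fth1, the ferritin receptor Ncoa4, the iron exporter Slc40a1, and the iron regulatory proteins encoded by Aco1 and Ireb2. Each gene was represented by the probe set that the array's annotation assigns to it alone, and, where there were several, by that with the highest mean level on the 13 arrays. All 10 were found among the 19938 genes measured. Ncoa4 had 2 such probe sets and the other genes 1 each.

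Developing red cells take up iron bound to transferrin, which enters through the transferrin receptor, is reduced in the endosome, crosses the endosomal membrane, and is carried into the mitochondrion to be built into heme. Iron that is not used is stored in ferritin or leaves the cell through ferroportin, which in marrow is known above all from macrophages that recycle old red cells. Iron regulatory proteins bind stem-loops in the transcripts of several of these genes when iron is scarce, which stabilises the transferrin receptor transcript and holds back translation of ferritin.

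The samples were total RNA from femoral bone marrow of male C57BL/6 mice, 6 weeks old and fed standard chow, each measured on 1 Affymetrix Mouse Gene 1.0 ST array, a 1-colour array of probes along the whole transcript. Phlebotomised mice lost 500 µL of blood by puncture of the retro-orbital sinus, and marrow was collected afterwards at 4 h (1 sample), at 9 h (3 samples) and at 12 h, 15 h and 48 h (2 samples each). The 3 control samples were taken at baseline, and the labels record neither a sham puncture nor the hour of day. The question posed was how marrow transcripts at each time differ from baseline.

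The sample titles carry numbers in 2 runs, which differ in level. The larger run held 10 arrays with median log2 levels of 6.98 to 7.03, and the smaller run held 3 arrays (control replicate 3 and 9 h replicates 1 and 2) with medians of 7.77 to 7.8. Within the smaller run 75.6% of genes had the same value on at least 2 arrays; among the iron genes, Tfr2 and Steap3 had 1 value on all 3 arrays, and Slc11a2 and Ncoa4 had 1 value on 2 of them. Levels are therefore set side by side only within a run, and each comparison carried a term for the run. The repeats also enter the estimate of spread behind every p-value, those at 48 h included. They may make that spread too small, and their part was not tested. Of 14 defining marrow genes, 13 were measured, and 11 of them lay among the top 10% of genes by mean level.

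Some arrays also carried transcripts of other tissues. On the 4 h array 15 of 20 small intestine markers had risen against control, and their mean log2 level was 9.20 against 6.46 and 6.53 on the controls of the larger run. The controls in turn stood above the later arrays of that run, where this mean was 5.89 to 6.17 from 9 h to 48 h. Reg3g, 1 of these markers, was at 7.61, 7.54 and 7.71 on the 3 controls and at 5.17 to 6.105 from 9 h to 48 h. On the 48 h arrays 9 of 17 measured liver markers had risen, with mean levels of 7.05 and 7.46 against 6.04 and 6.12; albumin (Alb) stood at 11.7 and 11.4 there, and at 9.68 on 9 h replicate 1 against 7.74 on the control of its run. The mean level of 12 skeletal muscle markers was highest on the 4 h array, at 9.70 against 7.92 and 7.99, although 0 of the 12 passed. The part of these tissues in the values, those of the controls included, was not tested.

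**Figure D1:**
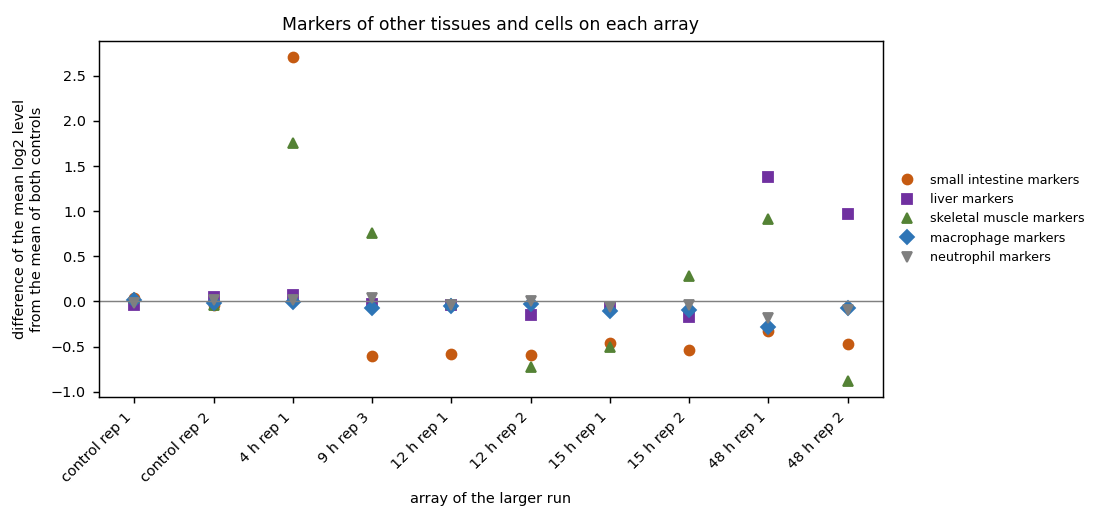
Mean log2 level of marker genes for 5 other tissues or cell types on each of the 10 arrays of the larger run, as the difference from the mean of its 2 controls. Small intestine markers stand out on the 4 h array, liver markers on both 48 h arrays, and skeletal muscle markers vary between arrays of 1 group.

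Tfrc encodes the receptor that brings iron-loaded transferrin into the cell. By mean level over all arrays of whole marrow, Tfrc lay above 98.9% of genes. Its log2 level was 11.53 and 12.00 on the 2 controls of the larger run and 11.76 at 4 h. It was then 12.20 on the 9 h array, 12.24 and 12.37 at 12 h, 12.18 and 12.18 at 15 h, and 12.18 and 12.19 at 48 h. In the smaller run it was 12.35 on the control and 12.74 and 12.77 at 9 h. Every array from 9 h to 48 h lay above every control of its run, and the 4 h array lay between the controls. By mean level in the larger run the order was 4 h (11.76) and control (11.76), then 15 h (12.18), 48 h (12.18) and 9 h (12.20), then 12 h (12.30). The SD over 2 arrays was 0.33 for control, 0.10 at 12 h, 0.0017 at 15 h and 0.0084 at 48 h, so neighbours within 9 h to 48 h differed by about the spread of the 12 h pair or less.

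Tfrc rose over the middle times. The mean of 9, 12 and 15 h exceeded control by a log2 difference of 0.46 ± 0.09 (SE), or 1.37-fold (95% confidence interval of the log2 difference 0.26 to 0.65; limma, Benjamini-Hochberg adjusted p = 0.0453). It was the 1 iron gene of 10 past the threshold of 0.05 there, where 157 of all genes, or 0.787%, passed. In a sample of whole marrow, more cells of a type and more RNA per cell cannot be told apart. The call was narrow: of the 12 fits that left out 1 array of another group than 4 h, it held in 1 (without control replicate 2), with adjusted p between 0.0233 and 0.12. Leaving out the single 4 h array cannot change this comparison. The difference was 0.31 without control replicate 1 and 0.60 without control replicate 2. On the arrays of these times 7 of 20 small intestine markers had fallen against control, and their part was not tested.

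At single times Tfrc did not pass. The log2 difference from control was -0.01 ± 0.15 at 4 h (adjusted p = 0.984), 0.42 ± 0.11 at 9 h (adjusted p = 0.372), 0.53 ± 0.12 at 12 h (adjusted p = 0.115), 0.41 ± 0.12 at 15 h (adjusted p = 0.228) and 0.42 ± 0.12 at 48 h (adjusted p = 0.175). The shares of all genes that passed were 1.99%, 0.0953%, 0.105%, 0.256% and 0.376% at these times, and 0 of the 10 iron genes passed at any of them. At an unadjusted p under 0.05, Tfrc was counted at 9, 12, 15 and 48 h. At these times 6.12%, 13.7%, 12.5% and 14.0% of all genes were counted. The difference of 48 h from the middle times was -0.04 ± 0.10, with an interval of -0.27 to 0.19 (adjusted p = 0.885).

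The 9 h difference could be read in each run. For Tfrc it was 0.44 in the larger run (1 array against 2) and 0.41 in the smaller (2 arrays against 1), and these differed by -0.03 ± 0.23 (adjusted p = 0.995). No gene of the 19938 passed in that test of the difference between runs (0.0%). At an unadjusted p under 0.05 it counted 1215 genes (6.09%) and 0 of the iron genes. Its interval for Tfrc was -0.55 to 0.48, so it could miss a disagreement as large as the 9 h difference itself. By the plain order of the arrays, all of 9, 12 and 15 h lay above every control of their run for 662 genes (3.32%), and Tfrc was the 1 iron gene among them. They all lay below for 307 genes (1.54%), with 0 iron genes among them.

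**Figure D2:**
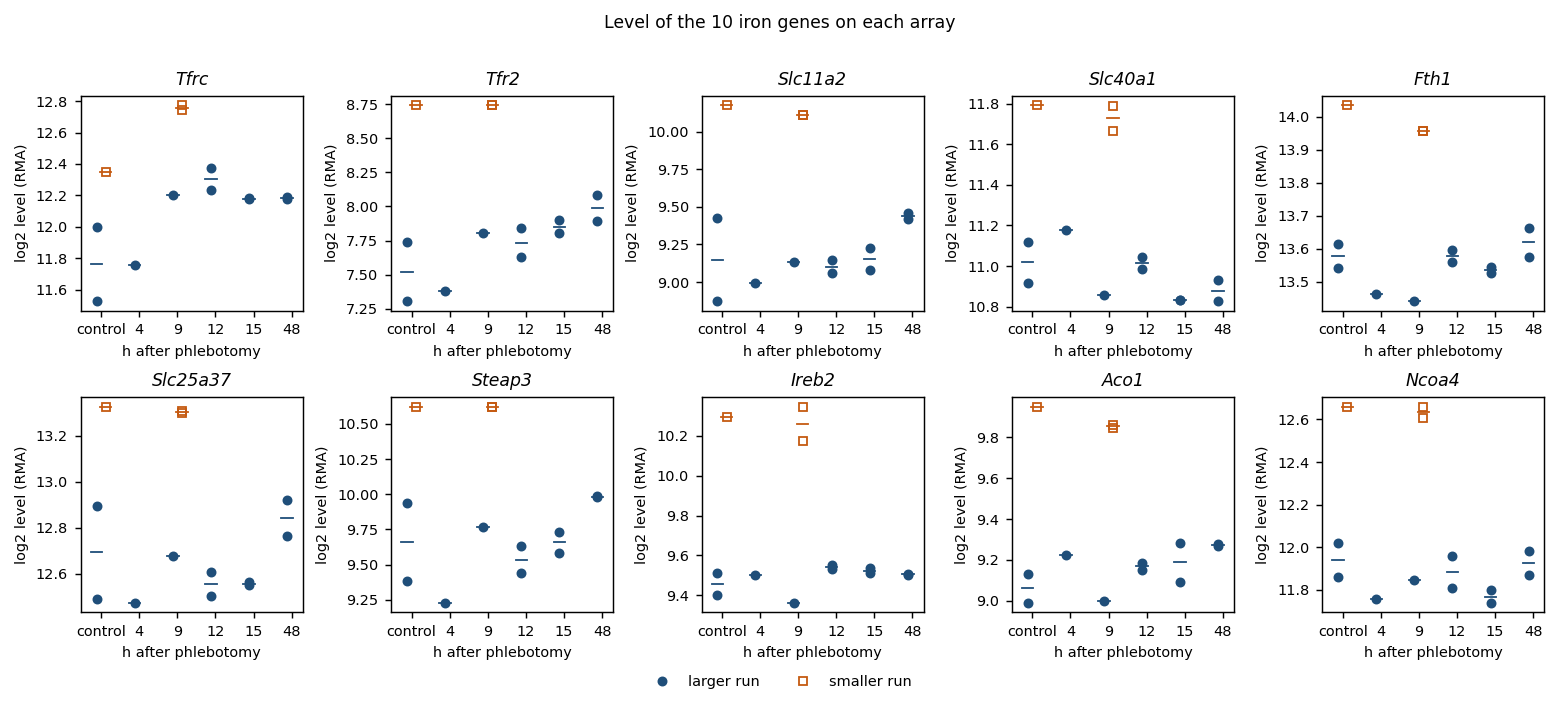
Log2 level (RMA) of the 10 iron genes on each of the 13 arrays, by hours after phlebotomy, with a panel and an axis range of its own for each gene. Filled points are arrays of the larger run, open squares those of the smaller, and short lines are group means within a run; all Tfrc points from 9 h to 48 h lie above the controls of their run.

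Tfr2 encodes the second transferrin receptor, which binds the erythropoietin receptor in red cell precursors and senses iron in the liver. The core of the site for hypoxia-inducible factors, ACGTG, was also found at Ncoa4, which is not shown. Sequences at an annotated start site of both receptor genes are shown because they hold it, printed in capitals. They come from RefSeq (GRCm38.p6) and run from 250 bases before the annotated start to 5 after it, on the strand of the gene. The Tfrc window is chr16:32608646-32608900 (+), where the match begins 2 bases before the start; the Tfr2 window is chr5:137569590-137569844 (+), where it begins 72 bases before.
Tfrc: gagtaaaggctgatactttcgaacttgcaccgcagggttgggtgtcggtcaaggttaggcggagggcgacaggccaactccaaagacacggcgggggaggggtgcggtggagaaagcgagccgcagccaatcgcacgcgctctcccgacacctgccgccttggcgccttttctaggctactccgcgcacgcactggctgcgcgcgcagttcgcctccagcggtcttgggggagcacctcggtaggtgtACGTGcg
Tfr2: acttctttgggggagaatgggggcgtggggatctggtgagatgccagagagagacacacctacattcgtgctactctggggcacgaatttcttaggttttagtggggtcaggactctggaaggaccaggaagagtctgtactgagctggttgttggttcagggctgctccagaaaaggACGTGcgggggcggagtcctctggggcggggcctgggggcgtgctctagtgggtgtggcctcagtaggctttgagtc

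Such windows were found for 7 of the 10 genes, 16 windows in all, and were searched on both strands. ACGTG was in 6 of the 16, for Tfrc (2 overlapping windows that share 1 match), Tfr2 (2 windows) and Ncoa4 (2 windows), and in 16.9% of the 32851 windows of all genes. The longer E-box CACGTG, which contains it, was in 0 of the 16 and in 6.21% of all. The STAT site TTCNNNGAA was in 0 of the 16 and in 7.18% of all. Of the GATA sites, AGATAA was in 1 Steap3 window and TGATAA in 1 Tfr2 window, against 10.1% and 8.06% of all windows. These matches describe the letters and were not tested for binding.

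The level of Tfr2 in the larger run was 7.31 and 7.74 on the controls, 7.38 at 4 h, 7.81 at 9 h, 7.63 and 7.84 at 12 h, 7.90 and 7.80 at 15 h, and 8.09 and 7.90 at 48 h. The 9 h, 15 h and 48 h arrays and 1 of the 12 h arrays lay above both controls, and the other 12 h array and the 4 h array lay between them. The log2 difference was 0.42 ± 0.13 at 48 h (adjusted p = 0.199), 0.28 ± 0.13 at 15 h (adjusted p = 0.421) and 0.20 ± 0.10 over the middle times (adjusted p = 0.462). In the smaller run the deposited value was 8.74 on all 3 arrays, a difference of 0 at 9 h where the larger run gave 0.28. The fitted difference at 48 h was 0.42 for both receptors, and neither passed. Without control replicate 1 the difference of Tfr2 was 0.23 at 48 h, 0.10 at 15 h and 0.03 over the middle times, and that of Tfrc at 48 h was 0.24; without control replicate 2 the values at 48 h were 0.54 and 0.58. With the mean of erythroid markers as a covariate (a fit chosen after the data had been seen) Tfr2 was at 0.14 ± 0.10 at 48 h.

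Steap3 is the reductase that turns ferric into ferrous iron in the endosome of red cell precursors. In the larger run its level was 9.38 and 9.93 on the controls and 9.23 at 4 h. It was 9.76 at 9 h, 9.44 and 9.63 at 12 h, 9.73 and 9.59 at 15 h, and 9.98 and 9.99 at 48 h. The 4 h array was the lowest of the 10 and the 48 h arrays the highest, with the middle times between the controls. The difference from control was -0.45 ± 0.18 at 4 h (adjusted p = 0.264) and 0.31 ± 0.14 at 48 h (adjusted p = 0.366), and 48 h differed from the middle times by 0.34 ± 0.12 (adjusted p = 0.212). On all 3 arrays of the smaller run the value was 10.62.

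Slc11a2 encodes the divalent metal transporter that moves ferrous iron out of the endosome, and also takes up iron in the duodenum. Its level was 8.87 and 9.42 on the controls of the larger run, 8.99 at 4 h, 9.14 at 9 h, 9.06 and 9.15 at 12 h, 9.08 and 9.22 at 15 h, and 9.46 and 9.42 at 48 h. The 48 h arrays lay at the level of the higher control, and all others lay between the controls. The difference was 0.28 ± 0.14 at 48 h against control (adjusted p = 0.388) and 0.32 ± 0.12 against the middle times (adjusted p = 0.231). At 4 h, on the array with intestinal markers, it was -0.17 ± 0.17 (adjusted p = 0.699). The smaller run gave 10.17 on the control and 10.11 on both 9 h arrays.

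Slc25a37 encodes mitoferrin 1, the carrier that brings iron into the mitochondria of red cell precursors. The larger run gave 12.49 and 12.90 on the controls, 12.47 at 4 h, 12.67 at 9 h, 12.50 and 12.61 at 12 h, 12.55 and 12.56 at 15 h, and 12.92 and 12.76 at 48 h. The middle times again lay between the controls, and 1 of the 48 h arrays lay above both. The difference from control was -0.10 ± 0.08 over the middle times (adjusted p = 0.678) and 0.15 ± 0.11 at 48 h (adjusted p = 0.593), and that of 48 h from the middle times was 0.25 ± 0.10 (adjusted p = 0.253). The control of the smaller run was at 13.33 and its 9 h arrays at 13.31 and 13.30.

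Of the 10 genes, 5 differed by at least 0.4 between the 2 controls of the larger run, as did 7.84% of all genes. Control replicate 2 exceeded control replicate 1 by 0.55 for Steap3, 0.55 for Slc11a2, 0.47 for Tfrc, 0.43 for Tfr2 and 0.41 for Slc25a37. For the other 5 the gap ran from -0.20 to 0.16. The 16 measured erythroid markers, genes of red cell precursors such as Klf1, Ermap and Kel, had the same order, with a mean log2 level of 10.80 on control replicate 1 and 11.30 on control replicate 2. That mean was 10.69 at 4 h, 11.08 at 9 h, 10.93 and 11.07 at 12 h, 11.02 and 11.04 at 15 h, and 11.44 and 11.27 at 48 h. Their median difference from control was -0.36 at 4 h, -0.06 over the middle times and 0.30 at 48 h. At 4 h 0 of the 16 were above 0, against 9817 of all 19938 genes. At 48 h 16 of the 16 were above 0, against 10665 of all genes, although 0 of the 16 passed in any comparison. Without control replicate 1 and without control replicate 2, the difference from control at 48 h was 0.10 and 0.49 for Steap3, 0.08 and 0.47 for Slc11a2, and 0.00 and 0.29 for Slc25a37.

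Over the 10 arrays of the larger run, the level of Steap3 had a Pearson correlation of 0.96 with the erythroid mean, Slc11a2 of 0.94, Slc25a37 of 0.94 and Tfr2 of 0.85. It was 0.66 for Fth1, 0.60 for Ncoa4 and 0.54 for Tfrc. Slc40a1 stood at -0.74, Ireb2 at -0.28 and Aco1 at 0.03. Among the iron genes themselves, Slc11a2 and Slc25a37 correlated at 0.92, Slc11a2 and Steap3 at 0.89, Slc25a37 and Steap3 at 0.89, and Tfrc and Tfr2 at 0.82, while Tfr2 and Slc40a1 stood at -0.88. These are descriptions over 10 arrays that share a normalization and the labelled times.

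A further fit, chosen after the data had been seen, carried the erythroid mean of each array, centred within its run, as a covariate; any effect of phlebotomy on that mean is then also taken out. The difference of 48 h from the middle times became 0.01 ± 0.10 for Steap3, -0.01 ± 0.09 for Slc11a2 and -0.02 ± 0.07 for Slc25a37. These 3 genes correlated with that mean at 0.96, 0.94 and 0.94 on the larger run's arrays. Values near 0 therefore follow from the fit itself and cannot test a cause. For Tfrc the difference over the middle times was 0.48 ± 0.05 in that fit (adjusted p = 0.00347), and it passed at 9 h (0.43, adjusted p = 0.0460), 12 h (0.58, adjusted p = 0.0230) and 15 h (0.44, adjusted p = 0.0356). At 4 h the difference was 0.30 ± 0.11 (adjusted p = 0.386), where it had been -0.01 without the covariate, and at 48 h it was 0.17 ± 0.09 (adjusted p = 0.446). Tfrc and the erythroid mean were both higher on control replicate 2 than on control replicate 1, Tfrc by 0.47. The covariate takes up part of that gap. The SE of Tfrc over the middle times was 0.05 with it and 0.09 without it. The passes of Tfrc in this fit therefore cannot test a cause either. On the larger run's arrays of the middle times, Tfrc lay above both controls while the erythroid mean lay between them. On the 9 h arrays of the smaller run Tfrc lay above the control, while the erythroid mean, at 11.74 and 11.76, lay below its 11.79. Of the 48 h arrays, replicate 1 had an erythroid mean above both controls and replicate 2 one between them. The part of red cell precursors in the values of Tfrc and the other genes was not tested.

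**Figure D3:**
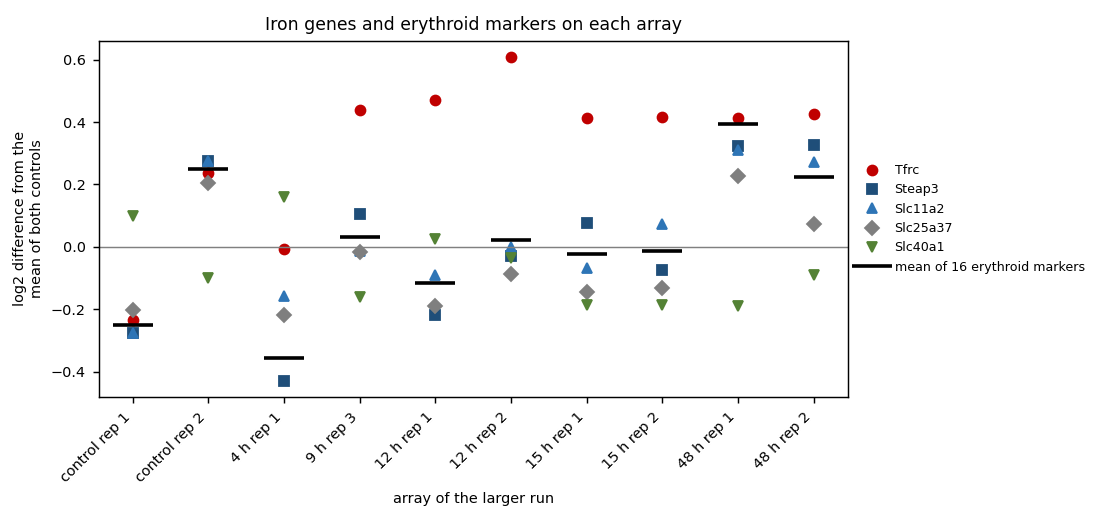
Log2 level of 5 iron genes (points) and the mean of 16 erythroid markers (bars) on each of the 10 arrays of the larger run, as the difference from the mean of its 2 controls. Tfrc lies above the bar on every array after phlebotomy, by least on 48 h replicate 1, and Steap3 and Slc11a2 follow the bars more closely.

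Of the genes of iron storage, neither passed in any comparison. Fth1, the ferritin heavy chain that oxidises and holds iron, had levels of 13.54 and 13.61 on the controls of the larger run, 13.46 at 4 h, 13.44 at 9 h, 13.60 and 13.56 at 12 h, 13.54 and 13.53 at 15 h, and 13.66 and 13.58 at 48 h. Its differences from control ran from -0.11 to 0.05, and the interval over the middle times was -0.15 to 0.07. The control of the smaller run stood at 14.03 and its 9 h arrays at 13.95 and 13.96. The lowest array of the larger run was that of 9 h and the highest 48 h replicate 1, and the 12 h and 15 h arrays overlapped the controls.

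Ncoa4, which delivers ferritin to the lysosome so that its iron can be released, had levels of 11.86 and 12.02 on the larger run's controls and 11.76 at 4 h. It was 11.85 at 9 h, 11.81 and 11.96 at 12 h, 11.74 and 11.80 at 15 h, and 11.87 and 11.98 at 48 h. The 4 h, 9 h and 15 h arrays and 1 of the 12 h arrays lay below both controls. The difference at 15 h was -0.16 ± 0.08 (adjusted p = 0.455). The second probe set gave -0.16 at 4 h where the first gave -0.17. In the smaller run the control and 9 h replicate 1 had the same value, 12.66, and 9 h replicate 2 had 12.61.

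Slc40a1 encodes ferroportin, the only known iron exporter of mammalian cells. Its level was 11.12 and 10.92 on the controls of the larger run and 11.18 at 4 h, the highest of that run. It was 10.86 at 9 h, 11.05 and 10.98 at 12 h, 10.83 and 10.83 at 15 h, and 10.83 and 10.93 at 48 h. In the smaller run it was 11.79 on the control and 11.79 and 11.67 at 9 h. The 9 h array of the larger run, both 15 h arrays and 48 h replicate 1 lay below both of its controls. The difference from control was 0.17 ± 0.11 at 4 h (adjusted p = 0.480), -0.17 ± 0.09 at 15 h (adjusted p = 0.434) and -0.12 ± 0.09 at 48 h (adjusted p = 0.552). Of 15 macrophage markers, 0 passed at any time; their median difference was -0.16 at 48 h, with mean levels of 9.31 and 9.52 there against 9.62 and 9.58 on the controls. Likewise 0 of 13 neutrophil markers and 0 of 9 lymphocyte markers passed at any time. At 48 h 1 of the 15 macrophage markers, 0 of the 13 neutrophil markers (median -0.14) and 0 of the 9 lymphocyte markers (median -0.27) were above control. Of the erythroid markers 16 of 16 were, and of all 19938 genes 10665. Markers of 1 cell type can vary together over the 2 arrays, so these counts are not separate observations. The erythroid mean of 48 h replicate 2, at 11.27, lay below the 11.30 of control replicate 2. The part of these cells in the values was not tested.

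Aco1 encodes the cytosolic aconitase that, once its iron-sulfur cluster is lost, binds RNA as iron regulatory protein 1. In the larger run it stood at 9.13 and 8.99 on the controls, 9.22 at 4 h, 9.00 at 9 h, 9.15 and 9.18 at 12 h, 9.09 and 9.29 at 15 h, and 9.27 and 9.28 at 48 h. Both 48 h arrays lay above the controls, by 0.21 ± 0.08 in the fit (adjusted p = 0.291), and by 0.27 ± 0.10 with the erythroid covariate (adjusted p = 0.267). In the smaller run it was 9.95 on the control and 9.85 and 9.86 at 9 h, so the difference at 9 h was -0.06 in the larger run and -0.09 in the smaller.

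Ireb2 encodes iron regulatory protein 2, which is degraded when iron is plentiful. It was at 9.51 and 9.40 on the controls of the larger run, 9.50 at 4 h, 9.36 at 9 h, 9.55 and 9.53 at 12 h, 9.51 and 9.53 at 15 h, and 9.51 and 9.50 at 48 h. In the smaller run it was 10.30 on the control and 10.18 and 10.35 at 9 h. The 9 h array of the larger run lay below both controls, the 12 h and 15 h arrays just above them, and the 4 h and 48 h arrays between them. Differences from control ran from -0.07 to 0.09 over the times, and the interval over the middle times was -0.09 to 0.16. Aco1 and Ireb2 correlated at 0.73 over the arrays of the larger run.

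At 48 h all arrays lay above every control of their run for 4828 genes (24.2%), and below for 3181 (16.0%). Among the 10 iron genes 4 were above (Tfrc, Tfr2, Steap3 and Aco1) and 0 below. At an unadjusted p under 0.05 the 48 h comparison counted Tfrc, Tfr2 and Aco1, where 14.0% of all genes were counted. Against the middle times, 195 genes passed at 48 h (0.978%) and 0 of the 10; at an unadjusted p under 0.05, Slc11a2, Slc25a37, Steap3 and Aco1 were counted, against 15.8% of all genes. The median difference of the 10 was 0.18 at 48 h against control, where that of all genes was 0.01, and -0.03 over the middle times, where that of all genes was -0.00. The median of the erythroid markers at 48 h was 0.30. The values at 48 h leaned on the controls: the 10 ran from -0.05 to 0.25 without control replicate 1, and from -0.18 to 0.58 without control replicate 2.

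**Figure D4:**
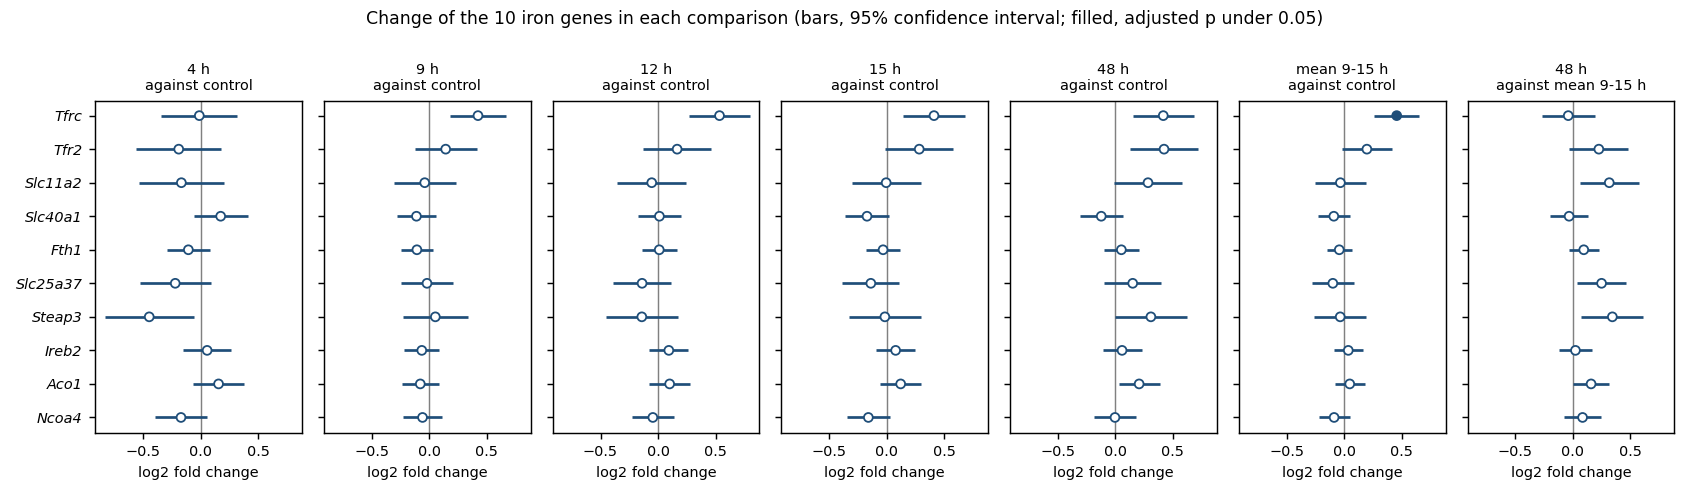
Log2 fold change of the 10 iron genes (points) with 95% confidence intervals (bars) in the 7 comparisons, from 1 limma fit to all 13 arrays. The 1 filled point, Tfrc over the middle times (9, 12 and 15 h together), has an adjusted p under 0.05; the intervals at 4 h, from a single array, are the widest.

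Genes were ranked by how closely their level followed that of Tfrc over the larger run. The ranking took 6472 genes with a range of at least 0.5, after symbols of provisional form, such as Gm, Rik or LOC symbols, were left out. The first 3 were Phf5a, a splicing factor subunit (Pearson correlation 0.97, Spearman correlation 0.88), Alkbh8, an enzyme that modifies transfer RNA (0.95 and 0.84), and Farsb, a subunit of an aminoacyl-tRNA synthetase (0.95 and 0.76). These are descriptions over 10 arrays.

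Another 6 lists of iron genes that are no members were read beside them, and most of their genes did not pass. Of 8 other metal reductases and transporters, Slc39a8 passed and the rest did not. Slc39a8, which encodes the zinc, manganese and iron transporter ZIP8, had levels of 8.20 and 8.49 on the controls of the larger run, 8.30 at 4 h, 8.60 at 9 h, 8.71 and 8.88 at 12 h, 8.89 and 8.82 at 15 h, and 8.97 and 9.01 at 48 h, and 9.07 on the control and 9.18 and 9.21 at 9 h in the smaller run. As for Tfrc, every array from 9 h on lay above the controls of its run. Of all genes, 3.32% lay so over 9, 12 and 15 h, and 24.2% at 48 h. It rose by 0.37 ± 0.07 over the middle times (adjusted p = 0.0476) and by 0.62 ± 0.10 at 48 h (adjusted p = 0.0259).

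Apart from the fit without the 4 h array, which cannot change these comparisons, the call for Slc39a8 over the middle times held in 0 of 12 fits without 1 array (0.26 to 0.45, adjusted p 0.0730 to 0.117). The call at 48 h held in 5 of 12 (0.50 to 0.71, adjusted p 0.0262 to 0.136), those without 12 h replicate 1 or 2, 9 h replicate 3, control replicate 2 or control replicate 3. Under the other settings it held in 4 of 12 over the middle times (0.30 to 0.40) and in 4 of 11 at 48 h (0.40 to 0.64). Slc25a28, which encodes the second mitoferrin, differed by 0.32 ± 0.09 at 4 h (adjusted p = 0.102). The median of this list was 0.42 at 15 h and between -0.09 and 0.15 in the other comparisons.

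Of 7 storage, chaperone and export oxidase genes, 2 passed, both at 4 h. Heph, an iron oxidase of the intestinal epithelium, rose by 0.93 ± 0.20 (adjusted p = 0.0461) on the array where 15 of 20 intestinal markers had risen, at 7.31 against 6.74 and 6.11, and the call held in 1 of 12 fits without 1 array (without control replicate 1). Ftmt, mitochondrial ferritin, fell by 0.48 ± 0.10 (adjusted p = 0.0392), to 4.87 against 5.31 and 5.45, with the call held in 3 of 12 fits (without 9 h replicate 3, control replicate 1 or control replicate 3) and the value 6.20 on every array of the smaller run. Adjusted p ran from 0.000281 to 0.123 for Heph and from 0.0202 to 0.104 for Ftmt over these fits. Under the other settings each passed in 4 of 10, with values of 0.47 (erythroid covariate) to 1.01 for Heph and -0.79 (no term for the run) to -0.40 for Ftmt. Both genes lie below the median of all genes by mean level and were not tested where dim genes were left out. Ftmt lies below the median of its array on every array; whether either is above background cannot be told from these values. Ftl1, the ferritin light chain, was highest at 15 h, at 13.49 and 13.50 against 13.35 and 13.29, a difference of 0.16 ± 0.07 (adjusted p = 0.352). The median of this list lay between -0.09 and 0.14 in the 7 comparisons.

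In the other 4 lists 0 genes passed in any comparison. Among 7 genes of transferrin carriage and cycling, Exoc6, which recycles transferrin vesicles, differed by 0.28 ± 0.08 at 12 h (adjusted p = 0.209), and Lrp1, a receptor for the heme carrier hemopexin, by -0.40 ± 0.12 at 48 h (adjusted p = 0.191). Among 9 genes of heme uptake, breakdown and export, Hp, the hemoglobin-binding protein haptoglobin, differed by 0.59 ± 0.14 at 4 h (adjusted p = 0.0679). Hpx, hemopexin, which the liver secretes, differed by 0.95 ± 0.28 at 48 h (adjusted p = 0.182), with 8.05 and 6.85 on the 48 h arrays against 6.62 and 6.51, the arrays on which albumin was high.

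Among 10 genes of iron-sulfur cluster assembly, Nfs1, the desulfurase that supplies the sulfur, stood at 8.85 and 8.84 at 48 h against 8.52 and 8.44 on the controls, a difference of 0.36 ± 0.07 (adjusted p = 0.0604). Glrx5, which passes clusters on, differed by 0.26 ± 0.09 at 48 h (adjusted p = 0.213). At 48 h 9 of these 10 genes were above control, with a median of 0.10, where 10665 of all 19938 genes were above control. Of 3 further measured transcripts with an iron-responsive element, Epas1, which encodes hypoxia-inducible factor 2 alpha, was at 9.92 and 10.12 at 15 h against 9.57 and 9.46, a difference of 0.46 ± 0.10 (adjusted p = 0.109). The medians of these 4 lists lay between -0.20 and 0.16 in the 7 comparisons.

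**Figure D5:**
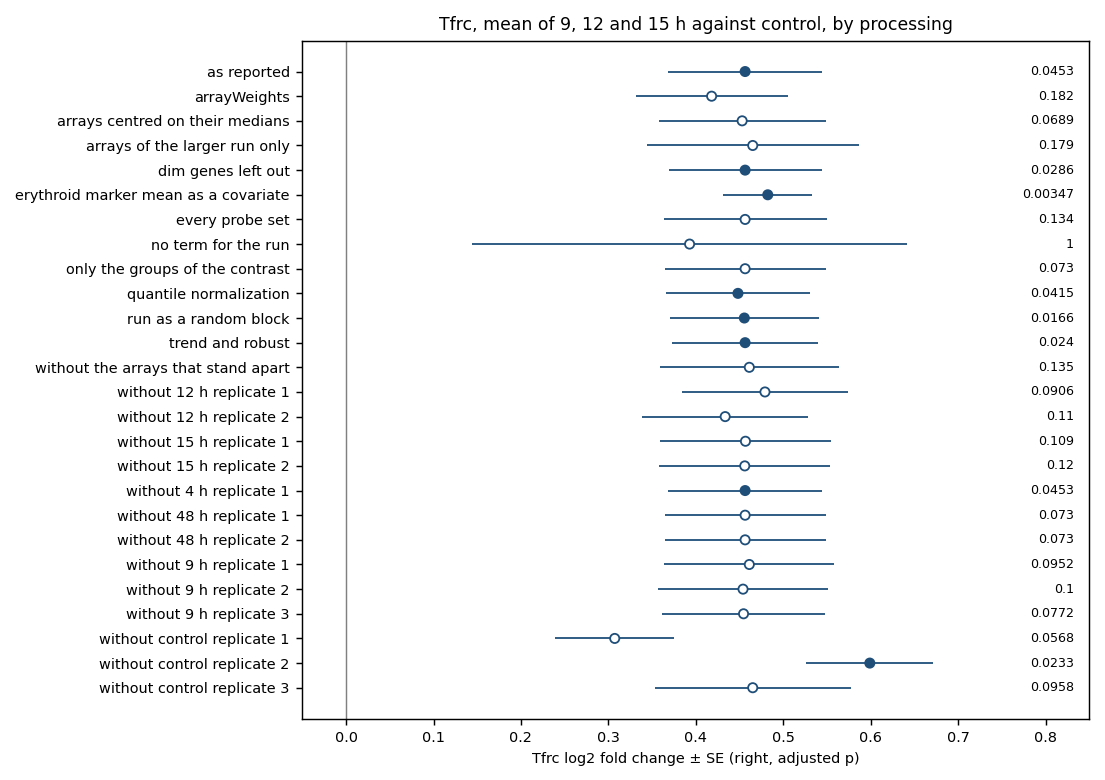
Log2 fold change of Tfrc over the middle times (9, 12 and 15 h averaged, relative to control; points) with its standard error (bars) as reported and under each alternative processing or with 1 array left out; filled points and the number at the right give the adjusted p, filled where under 0.05. All values lie between 0.31 and 0.60 and above 0, while the adjusted p crosses the threshold from setting to setting.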

How the data were processed

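RNA of 13 marrow samples was hybridised to 1 array each. The authors deposited log2 levels made with RMA, per the submitters' processing notes, in 1 table of 35557 probe sets; its version, and which arrays were normalized together, are not given in the sources used here. Gene symbols came from the platform annotation for 21789 probe sets with a single symbol, updated through the Entrez identifier for 21698, giving 19938 genes.

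A linear model with 6 groups and the run of title numbers was fitted with limma (version 3.58.1, R 4.3.3) to every array and moderated with eBayes (6 residual and 4.62 prior degrees of freedom). For the single 4 h sample the spread of the other groups was assumed. p-values were adjusted by the Benjamini-Hochberg method over 19938 genes, with a threshold of 0.05. The labels do not say that replicates came from separate animals, so the p-values rest on the spread among these samples alone. That spread may be technical, and the values repeated within the smaller run may make it too small. Precision is limited by the number of arrays. The fit was tested on simulated data.

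The members and gene lists were chosen with earlier results of these data known. All 10 members are named. Of the other iron lists, genes past the threshold and the 2 with the smallest p against control in each list are named. Of marker lists, summaries are given, with the genes of widest range where a value rests on them. For Tfrc the 3 most correlated genes are named, symbols of provisional form left out. Alternatives covered the run term, normalization, dim genes, probe sets, variance and weights, each array left out, and, chosen after seeing the data, the arrays with other tissues and an erythroid covariate. Python 3.11.15 with matplotlib 3.10.9 drew the figures. Promoter sequences were credited to RefSeq.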

Additional observations from a re-analysis of the deposited data

How the results depend on the processing

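Under 25 alternatives 0 called values changed sign; of 1730 alternative values of the 10 genes, 1706 stayed on the same side of the threshold, 6 came past it and 18, all of Tfrc over the middle times, no longer passed; 94 changed sign with neither value past it. The count of iron genes past the threshold over 9, 12 and 15 h went from 1 to 0 with array weights, with arrays centred on their medians, with the larger run only (Tfrc 0.47 ± 0.12, adjusted p = 0.179), with every probe set tested, with no term for the run (0.39, adjusted p = 1), with only the groups of the contrast, and without the 4 arrays that stand apart (4 h replicate 1, 9 h replicate 1 and both 48 h arrays; 0.46, adjusted p = 0.135; chosen after seeing the data). It stayed at 1 under the other 5, with adjusted p from 0.00347 to 0.0415. With 1 array left out it ran from 0 to 1, and leaving out the 4 h array cannot change it. At 4 h the count went from 0 to 1 with array weights (Steap3, -0.50, adjusted p = 0.0286); with 1 array left out it ran from 0 to 1, the 1 being Steap3 without control replicate 1 (-0.66, adjusted p = 0.0117). At 9 h, 12 h and 15 h it went from 0 to 1 (Tfrc) with the erythroid covariate, chosen after seeing the data. At 48 h it ran from 0 to 1 with 1 array left out, the 1 being Tfrc without control replicate 2 (0.58, adjusted p = 0.0400). The cause of these moves was not tested. Over all genes, 157 passed as reported over the middle times and between 8 (no term for the run) and 340 (without control replicate 1) under the alternatives. These counts were 397 and between 39 and 1852 at 4 h, 19 and between 3 and 75 at 9 h, 21 and between 2 and 414 at 12 h, 51 and between 5 and 505 at 15 h, 75 and between 11 and 143 at 48 h, and 195 and between 13 and 502 for 48 h against the middle times. No paired analysis was possible because the labels give no replicate numbers; those used here only follow accession order.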
